A study of Mus musculus with 6 samples.

Results

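The mitochondrial respiratory chain passes electrons from NADH and succinate to oxygen and uses the proton gradient built on the way to make ATP. Complex I (NADH dehydrogenase), complex II (succinate dehydrogenase), complex III (cytochrome c reductase) and complex IV (cytochrome c oxidase) form the chain, and complex V is the ATP synthase. Most subunits are encoded in the nucleus, and resting T cells rely largely on this pathway for ATP.

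The genes described here were the probe sets paired with 1 platform symbol that began with Nduf, Uqcr, Atp5, Sdha, Sdhb, Sdhc or Sdhd, or with Cox followed by a digit from 4 to 8. This rule, which used no measured value, found 93 genes with 119 probe sets among 19938 genes with a symbol of their own. They comprised 81 subunits or tissue isoforms and 12 assembly factors, the proteins that help build a complex without staying in its core. Cox7a2l, which helps join complexes III and IV, was counted among these 12, under complex IV. By complex, 41 genes belonged to complex I, 8 to complex II, 8 to complex III, 19 to complex IV and 17 to complex V. Ndufa4, named for complex I, and its isoform Ndufa4l2 were counted with complex IV, to which the Ndufa4 protein belongs. Cox7c and Ndufb4, whose probe sets carried a further symbol, were not counted as members.

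The RNA came from CD8+ T cells (CD8-TC) taken fresh from the spleen, and therefore called resting, of 6 male ICR mice aged 6 weeks, and was read on Affymetrix whole-transcript arrays of the mouse Gene ST type, 1 per mouse. The WT group held 3 mice with intact Runx3 (Runx3 +/+), and the Runx3-/- group held 3 mice without this transcription factor, which is needed for CD8 lineage functions. ICR is an outbred stock, and neither the cells in which Runx3 was lost nor the deleted part is given in the labels. WT cells were enriched on anti-CD8 magnetic beads, and Runx3-/- cells were in addition FACS-sorted to take out CD11c+ dendritic cells, although another label mentions sorting for all samples. If only the Runx3-/- cells were sorted, this step and the genotype cannot be told apart.

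T cell markers were bright in both groups. Over 11 such markers the mean log2 signal ran from 9.25 to 9.52 in WT and from 9.51 to 9.72 in Runx3-/- arrays, and 2 of them (Cd247 and Lat, parts of T cell receptor signalling) rose and 0 fell by the limma test used throughout. Cd247 missed the threshold without Runx3-/- replicate 2 (adjusted p = 0.0595), and Lat whichever Runx3-/- array was left out (adjusted p from 0.0589 to 0.0690). Markers of other spleen cells also moved with genotype. All 11 B cell markers, 13 of 14 macrophage markers, 6 of 7 erythroid markers and 4 of 13 dendritic cell markers fell in Runx3-/- arrays, as did 2 of 4 natural killer cell markers, 2 of 3 neutrophil markers and 1 of 1 platelet marker, and 1 erythroid marker rose. The mean log2 signal of the B cell list ran from 6.31 to 7.05 in WT and from 4.05 to 4.29 in Runx3-/- arrays, and that of the macrophage list from 6.90 to 7.17 and from 4.21 to 4.87. For the erythroid list it ran from 4.71 to 5.46 and from 3.38 to 3.52, for dendritic cells from 6.95 to 7.75 and from 6.20 to 6.999, for natural killer cells from 6.08 to 6.67 and from 5.04 to 5.32, for neutrophils from 3.56 to 4.49 and from 2.96 to 3.38, and for platelets from 4.25 to 4.86 and from 2.87 to 3.05. Log2 array signals have no true zero, so that no marker can be called absent. The part of these cells in the values below was not tested, and in RNA from many cells fewer cells of a type and less RNA per cell cannot be told apart. The Runx3 probe set itself did not pass the test, with a difference of 0.16 log2 units (95% interval -0.20 to 0.53, limma adjusted p = 0.559), and -0.012 without Runx3-/- replicate 3. Whether it reads the deleted part is unknown here, so it does not check the genotype labels.

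Loss of Runx3 was compared with WT to ask which respiratory chain genes differ in resting CD8-TC. Each difference is the Runx3-/- mean less the WT mean of log2 signals, where 0.585 is 1.5-fold, and the limma test adjusted p-values over all genes tested. Of the 93 genes, 87 reached the median signal of an array in at least 1 array and were tested. Only 2 of the 87 (2.3%) differed at an adjusted p under 0.05, both in complex IV, where 11.6% of all 9925 genes tested did. Ndufa4 fell and Cox7b rose. The other 85 genes did not pass, and 67 of the 87 (77.0%) had a lower mean in Runx3-/- cells, whereas 48.9% of all genes tested did. Their median difference was -0.10, and that of all genes tested was 0.0062. Among all 93 genes, tested or not, 68 had a lower mean and the median was -0.083.

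The differences were small. A difference of 1.5-fold or more was measured for 1 member, Ndufs5, and for 8.31% of all genes tested, and 46 of the 87 members differed by less than 1.1-fold. The 95% interval lay wholly within 1.5-fold in both directions for 80 of 87 members (92.0%). It did so for 8 of 13 tested members in complex IV (61.5%) and for 73.9% of all genes tested. Replicates of the members also lay closer together, with a median SD of 0.083 in WT and 0.115 in Runx3-/- arrays, than those of all genes tested, at 0.121 and 0.129. At an unadjusted p under 0.05, 17 members (19.5%) and 27.7% of all genes tested were reached, 15 of the 17 members being lower and 2 higher in Runx3-/- cells. The 3 Runx3-/- arrays lay wholly below the 3 WT arrays for 18 members (20.7%), where 16.2% of all genes did so, and wholly above them for 4 members (4.6%), where 17.4% did so. The fold and unadjusted p thresholds of the study's methods called 1 member (1.15%) and 8.08% of all genes tested.

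**Figure D1:**
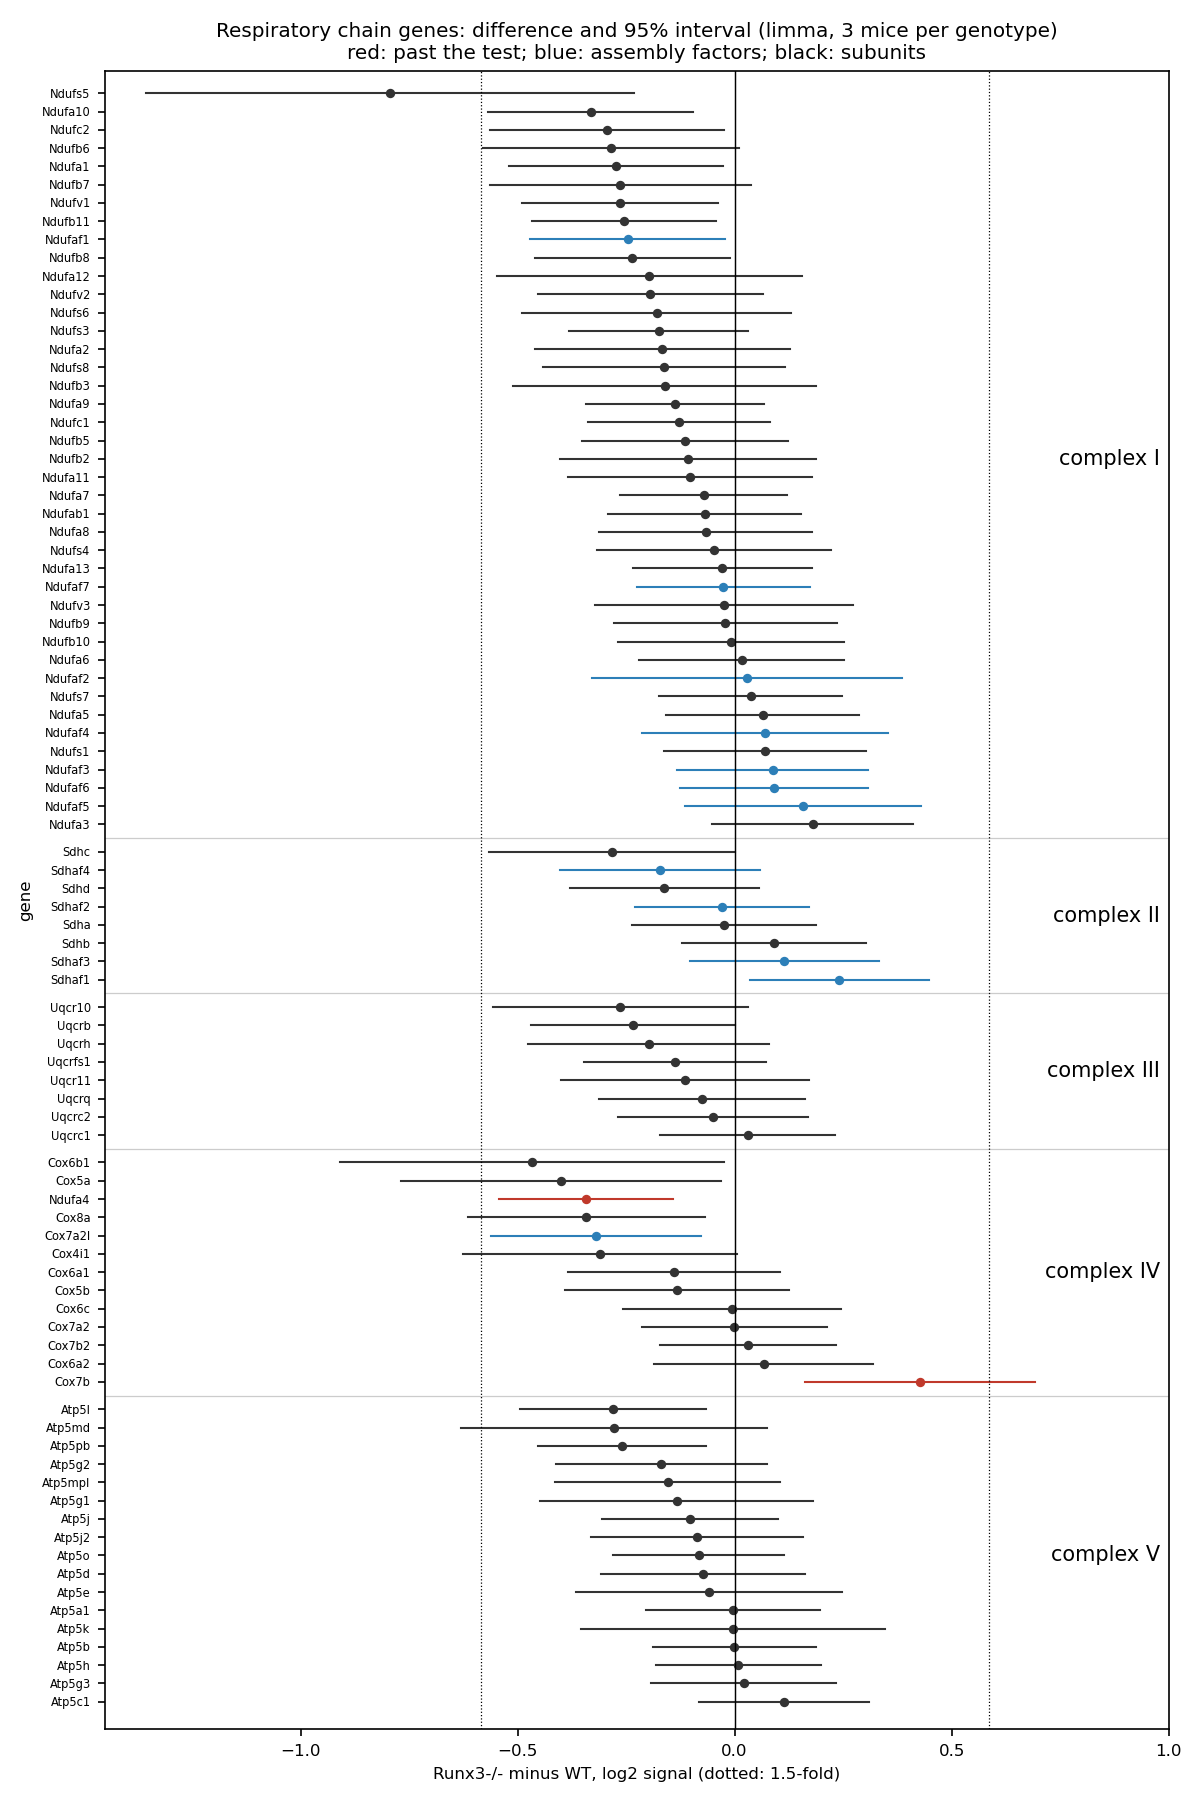
Runx3-/- minus WT difference in log2 signal (horizontal axis) with its 95% interval from limma for each of the 87 tested respiratory chain genes (vertical axis), grouped by complex and ordered by difference, n = 3 mice per genotype. Red marks the 2 genes past the test, blue the assembly factors and black the subunits, and dotted lines mark 1.5-fold; 67 of the 87 points lie left of 0, and Ndufs5 at -0.79 lies farthest from it.

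Ndufa4, a small subunit of complex IV, gave log2 signals of 8.89, 8.92 and 8.93 in WT mice, against 8.63, 8.59 and 8.49 in Runx3-/- mice on the log2 scale (probe set 10543134). Each Runx3-/- array lay below each WT array. The fall was 1.27-fold, or -0.34 ± 0.09 (SE, n = 3 per group, 95% interval -0.54 to -0.14, limma adjusted p = 0.0408). With any 1 of the 6 arrays left out it missed the threshold, with adjusted p from 0.0641 to 0.109 and differences from -0.37 to -0.30.

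Cox7b, another small nuclear-encoded subunit of complex IV, went the other way. It gave log2 signals of 8.41, 8.20 and 8.53 in WT mice, against 8.72, 8.95 and 8.76 in Runx3-/- mice (probe set 10358709), so that all Runx3-/- arrays lay above all WT arrays. The rise was 1.35-fold, or 0.43 ± 0.12 (SE, n = 3, 95% interval 0.16 to 0.69, limma adjusted p = 0.0497), at the edge of the threshold. The adjusted p was 0.0386 without WT replicate 3 and between 0.0724 and 0.149 without any other single array. A further Cox7b probe set (10601356) gave log2 signals of 6.46, 6.13 and 6.41 in WT mice, against 6.61, 6.70 and 6.64 in Runx3-/- mice. Its groups also did not overlap, with a difference of 0.31 (95% interval 0.07 to 0.56) that did not pass when every probe set was tested on its own (adjusted p = 0.219). The sources used here do not say which copy of the gene each probe set reads.

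**Figure D2:**
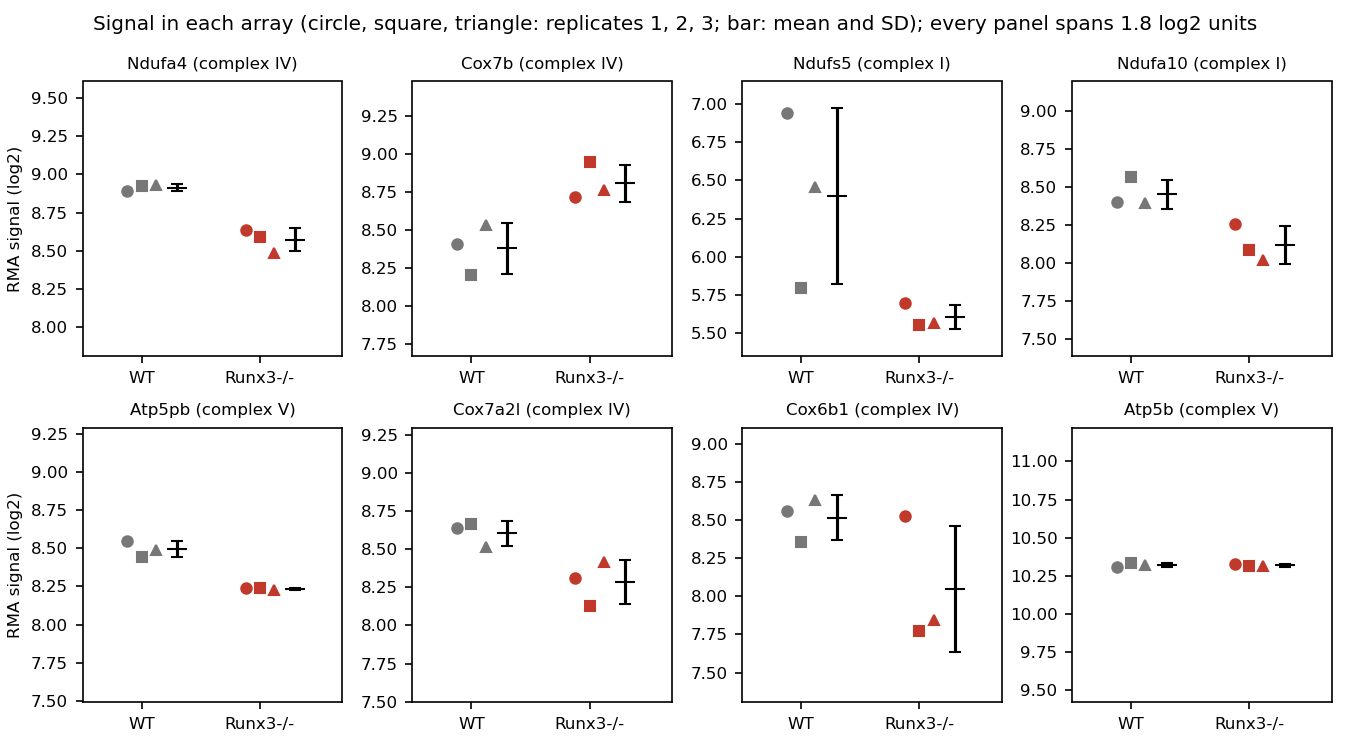
Log2 RMA signal (vertical axis, each panel spanning the same range) in the 3 WT (grey) and 3 Runx3-/- (red) arrays for 8 respiratory chain genes, with circles, squares and triangles for replicates 1, 2 and 3 and bars for the mean and SD. Ndufa4 lies near 8.91 in WT and 8.57 in Runx3-/- arrays, Cox7b near 8.38 and 8.81, Ndufs5 is spread from 5.80 to 6.94 within WT, Cox6b1 at 8.53 in Runx3-/- replicate 1 lies among the WT values, and Atp5b does not separate the groups.

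Promoters of respiratory chain genes are known for sites of NRF1, of ETS factors such as GABP, and of YY1, and RUNX proteins bind a motif of their own. Promoter windows of 300 bases, 250 before and 50 after the transcription start, were taken from RefSeq (build GRCm38.p6), which held 82 windows for 77 of the 93 genes. The windows of the 2 genes that differed are shown because they moved in opposite directions, and that of Atp5l, a complex V subunit, because it had the lowest p among tested members with an NRF1 match. Each is written 5′ to 3′ in the direction of the gene, with matches in capitals.
Ndufa4, chr6:11907401-11907700, minus strand: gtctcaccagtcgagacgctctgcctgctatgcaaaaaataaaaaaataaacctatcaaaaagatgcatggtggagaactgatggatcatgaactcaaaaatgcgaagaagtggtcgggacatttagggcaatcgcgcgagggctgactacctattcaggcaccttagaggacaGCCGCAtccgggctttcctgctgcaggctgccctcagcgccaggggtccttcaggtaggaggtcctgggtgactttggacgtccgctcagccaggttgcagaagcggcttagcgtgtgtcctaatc
Cox7b, chrX:106015450-106015749, plus strand: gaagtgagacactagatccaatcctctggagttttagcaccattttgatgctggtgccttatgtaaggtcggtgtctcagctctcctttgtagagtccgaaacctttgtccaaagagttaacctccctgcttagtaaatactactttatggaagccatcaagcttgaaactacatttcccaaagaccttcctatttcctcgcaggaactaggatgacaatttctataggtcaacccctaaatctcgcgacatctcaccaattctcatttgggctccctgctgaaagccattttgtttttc
Atp5l, chr9:44920693-44920992, minus strand: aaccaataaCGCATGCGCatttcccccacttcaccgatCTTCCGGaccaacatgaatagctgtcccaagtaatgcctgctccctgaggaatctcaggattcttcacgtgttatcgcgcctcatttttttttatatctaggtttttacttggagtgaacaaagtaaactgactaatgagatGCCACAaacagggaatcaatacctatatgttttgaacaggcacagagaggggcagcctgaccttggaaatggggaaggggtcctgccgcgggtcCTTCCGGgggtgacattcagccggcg

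The capitals mark any match, on either strand, to GCGCATGCG (NRF1), CCGGAAG (ETS), AAGATGGC (YY1) or a RUNX motif (TGTGGT or TGCGGT or TGTGGC or TGCGGC). None of these motifs contains another, and the 4 RUNX forms were counted as 1 motif. Ndufa4 held 1 match, TGCGGC on the opposite strand, 76 bases before the start. Cox7b held none of these letters in this window. Atp5l held NRF1 letters 241 bases before the start, ETS letters 212 bases before it and again after it, and TGTGGC on the opposite strand 70 bases before it. Over the members, 10 of 77 genes (13.0%) held the NRF1 letters, and 1.95% of 27025 genes with a window did. The ETS letters were in 21 members (27.3%) and 9.93% of genes, and the YY1 letters in 10 members (13.0%) and 3.19% of genes. A RUNX match was in 38 members (49.4%) and in 48.7% of genes. These matches are descriptions of letters, and no factor's binding was measured here.

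Complex I, the entry point for electrons from NADH, had 41 genes, all tested, and 0 passed at the adjusted threshold of limma. An unadjusted p under 0.05 was reached by 8 of the 41, and by 27.7% of all genes tested. The median difference was -0.11, and 31 genes had a lower mean in Runx3-/- cells. Without Runx3-/- replicate 2 the median was -0.068, with 28 lower. Its accessory subunits, which surround the catalytic core, had a lower mean in 25 of 28 cases with a median of -0.12. This median was -0.071 without Runx3-/- replicate 2 (21 lower) and -0.19 without Runx3-/- replicate 1 (27 lower). The 2 probe sets shared by the accessory subunit Ndufb4 and Ndufb4b, outside these counts, both differed by -0.15, with overlapping groups. The 6 core subunits measured were split, 4 lower and 2 higher. Ndufv1, the flavoprotein that oxidizes NADH, gave log2 signals of 6.85, 6.84 and 6.77 in WT mice, against 6.67, 6.41 and 6.58 in Runx3-/- mice. These groups did not overlap, and the difference was -0.26 ± 0.10 (SE, adjusted p = 0.124). Its partner Ndufv2, an iron-sulfur subunit, differed by -0.19 ± 0.11, Ndufs3 by -0.18 ± 0.09 and Ndufs8, another iron-sulfur subunit, by -0.16 ± 0.12. Ndufs1, the largest iron-sulfur subunit, differed by 0.071 ± 0.10 and Ndufs7 by 0.037 ± 0.09.

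Ndufs5, an accessory subunit, had the largest difference of all members, and is named here after its values were seen. It gave log2 signals of 6.94, 5.80 and 6.46 in WT mice, against 5.70, 5.55 and 5.57 in Runx3-/- mice (probe set 10516211). The WT arrays were spread over more than 1 log2 unit, and WT replicate 2 lay close to the Runx3-/- arrays without reaching them. The difference was -0.79 ± 0.25 (SE, 95% interval -1.36 to -0.23, limma adjusted p = 0.0750), and without WT replicate 2 it was -1.10 and passed, with an adjusted p of 0.00803. A probe set shared with the pseudogene Ndufs5-ps, which the rule leaves out, gave log2 signals of 5.28, 5.19 and 5.20 in WT mice, against 4.78, 4.84 and 4.74 in Runx3-/- mice. It was steady within both groups and 0.44 lower in Runx3-/- cells (95% interval -0.59 to -0.29, limma adjusted p = 0.0312 with every probe set tested on its own). Which of the 2 genes it reads cannot be told apart.

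Ndufa10, also an accessory subunit chosen after its values were seen, gave log2 signals of 8.40, 8.56 and 8.39 in WT mice, against 8.26, 8.09 and 8.02 in Runx3-/- mice. The groups did not overlap, and the difference of -0.33 ± 0.10 (SE, adjusted p = 0.0753) missed the threshold. Of the 7 complex I assembly factors, 5 had a higher mean in Runx3-/- cells, with a median of 0.069. The median was 0.026 under quantile normalization, 0.12 without WT replicate 1 or Runx3-/- replicate 1, 0.034 without Runx3-/- replicate 2 and -0.0043 without WT replicate 2. Named after their values were seen, the ends of their range were Ndufaf1 at -0.25 ± 0.10 and Ndufaf5 at 0.16 ± 0.12 (SE). The Ndufaf1 groups did not overlap, and the Ndufaf5 groups did. Ndufaf5 was dim, with log2 means of 3.76 in WT and 3.91 in Runx3-/- arrays, where array medians ran from 3.45 to 3.53. Some others of the 5 with a higher mean were similarly dim.

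Complex II, which is also the succinate dehydrogenase of the tricarboxylic acid cycle, had a median of -0.027 over 8 genes. Of these, 0 passed the limma test and 1 had an unadjusted p under 0.05, where 27.7% of all genes tested did. The median was -0.0072 under median centring, -0.015 without WT replicate 1 or 2 and -0.050 without WT replicate 3. The flavoprotein Sdha, which holds the active site, gave log2 signals of 8.12, 8.24 and 8.07 in WT mice, against 8.06, 8.10 and 8.20 in Runx3-/- mice, so that the groups overlapped. Its difference was -0.024 (95% interval -0.24 to 0.19) and turned sign without Runx3-/- replicate 1 or without WT replicate 2, to 0.0047 and 0.022. The iron-sulfur subunit Sdhb differed by 0.091 ± 0.09, and the membrane anchors Sdhc and Sdhd by -0.28 ± 0.12 and -0.16 ± 0.10 (SE, adjusted p between 0.183 and 0.569). Sdhaf1, a factor for iron-sulfur insertion into Sdhb that was chosen after its values were seen, gave log2 signals of 5.26, 5.25 and 5.32 in WT mice, against 5.57, 5.42 and 5.57 in Runx3-/- mice. All Runx3-/- values lay above all WT values, and the difference of 0.24 ± 0.09 did not pass (adjusted p = 0.125).

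Complex III, which hands electrons from ubiquinol to cytochrome c, had a lower mean in Runx3-/- cells for 7 of 8 genes with a median of -0.13. Of the 8, 0 passed the adjusted or the unadjusted threshold of limma, where 11.6% and 27.7% of all genes tested did. By the brightest probe set of each gene the groups overlapped for all 8, and they did not overlap for 33.6% of all genes tested. Of the 3 Uqcrb probe sets, however, the 2 dimmer ones lay wholly lower in Runx3-/- arrays, by -0.22 and -0.18. With every probe set tested on its own, these 2 did not pass (limma adjusted p = 0.276 and 0.339). In that fit the unadjusted p of the 3 Uqcrb probe sets ran from 0.0353 to 0.0569. The Rieske iron-sulfur protein Uqcrfs1 gave log2 signals of 5.18, 5.01 and 5.18 in WT mice, against 4.96, 5.03 and 4.96 in Runx3-/- mice. Its difference was -0.14 ± 0.09 (SE, adjusted p = 0.374). The other differences ran from -0.26 for Uqcr10 to 0.030 for Uqcrc1, both named after their values were seen, and the Uqcrc1 sign turned without Runx3-/- replicate 1.

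Complex IV, the terminal oxidase, held both genes that passed and the widest differences among complexes II to V, from -0.47 to 0.43. An unadjusted p under 0.05 was reached by 6 of its 13 tested genes, where 27.7% of all genes tested did so. The limma interval lay wholly within 1.5-fold for 8 of the 13 (61.5%), a smaller share than the 73.9% of all genes tested. Of 13 tested genes, 10 had a lower mean in Runx3-/- cells, and the median was -0.14. This median depended on the filter on low signal, and was -0.0060 over all 19 genes with no filter, -0.069 over 16 genes with the filter at the 25th percentile and -0.31 over the 11 genes that reached the median in all arrays. It was -0.089 without WT replicate 3 and -0.22 without Runx3-/- replicate 1. Among its 10 accessory subunits 9 had a lower mean, with a median of -0.22, Cox7b being the exception. Of the 9, Cox6c and Cox7a2 differed by only -0.0060 and -0.00084. Over the alternative settings the number with a lower mean ran from 7 to 9 of the 10. The probe sets shared by Cox7c and Gm12338, outside these counts, differed by -0.018, -0.019 and -0.044, with overlapping groups. The catalytic subunits of this complex are encoded in mitochondrial DNA and are not members. Cox6b1, on the face of the enzyme that binds cytochrome c, gave log2 signals of 8.56, 8.35 and 8.63 in WT mice, against 8.53, 7.78 and 7.85 in Runx3-/- mice. Runx3-/- replicate 1 lay among the WT values and the other two well below them. The difference was -0.47 ± 0.19 (SE, adjusted p = 0.160), and without Runx3-/- replicate 1 it was -0.71 and passed (adjusted p = 0.0155). Cox8a gave log2 signals of 7.08, 7.14 and 7.17 in WT mice, against 7.02, 6.75 and 6.60 in Runx3-/- mice, again with replicate 1 nearest to WT. It differed by -0.34 ± 0.12 (SE, adjusted p = 0.105), and by -0.46 without Runx3-/- replicate 1 (adjusted p = 0.0416). Cox5a, named after its values were seen, differed by -0.40 ± 0.16 (SE, adjusted p = 0.150) with overlapping groups, and by -0.24 without WT replicate 3.

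Several complex IV subunits have tissue isoforms. Cox4i1, Cox6a1, Cox6b1, Cox7a2 and Cox8a, the widely used forms, were all tested. Cox4i2, Cox6b2, Cox7a1, Cox8b, Cox8c and Ndufa4l2, known from lung, testis, muscle or hypoxic cells, read between 2.67 and 3.05 in every array and stayed below the array medians, which ran from 3.45 to 3.53, so that they were not tested. Cox7b2, the testis form, and Cox6a2, the muscle form, were near that median and tested. Cox6a2 reached it only in Runx3-/- replicate 3, at 3.71 against 3.53, so that its higher mean came from the array that let it pass the filter. Cox7b2 differed by 0.031 ± 0.09, and the Cox6a2 difference of 0.067 had a 95% interval from -0.18 to 0.32 and turned to -0.032 without Runx3-/- replicate 3. Cox4i1 differed by -0.31 ± 0.14, Cox6a1 by -0.14 ± 0.11 and Cox7a2 by -0.00084 ± 0.09, a value whose sign turned to positive under quantile normalization and median centring. Cox7a2l, which helps join complexes III and IV into supercomplexes, gave log2 signals of 8.64, 8.66 and 8.51 in WT mice, against 8.31, 8.13 and 8.42 in Runx3-/- mice. The groups did not overlap, and the difference was -0.32 ± 0.11 (SE, adjusted p = 0.0903). A further Cox7a2l probe set (10453254) differed by -0.22, with overlapping groups (limma adjusted p = 0.447 with every probe set tested on its own).

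Complex V, the ATP synthase, had 17 genes, 14 with a lower mean in Runx3-/- cells, and a median of -0.083. Of the 17, 0 passed the adjusted threshold of limma and 2 had an unadjusted p under 0.05, where 27.7% of all genes tested did. The complex V median was -0.028, with 10 genes lower, without Runx3-/- replicate 2, and -0.14 without Runx3-/- replicate 1. Atp5b, the catalytic beta subunit, gave log2 signals of 10.31, 10.33 and 10.32 in WT mice, against 10.33, 10.32 and 10.31 in Runx3-/- mice, the groups overlapping, with a difference of -0.00093 (95% interval -0.19 to 0.19). Atp5a1, the alpha subunit, gave log2 signals of 10.05, 10.16 and 10.01 in WT mice, against 10.06, 10.06 and 10.09 in Runx3-/- mice, with a difference of -0.0034 (95% interval -0.20 to 0.20). The signs of both turned to positive under quantile normalization and under median centring. Atp5c1, the gamma subunit of the head, gave log2 signals of 9.86, 9.84 and 9.90 in WT mice, against 10.04, 9.93 and 9.97 in Runx3-/- mice. All Runx3-/- values lay above all WT values, with a difference of 0.11 ± 0.09 (SE, adjusted p = 0.431). Of the remaining head subunits, Atp5d (delta) differed by -0.072 ± 0.10 and Atp5e (epsilon) by -0.059 ± 0.13.

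The 3 genes of the proton-driven c-ring encode the same mature protein. Atp5g2 differed by -0.17 ± 0.11, Atp5g1 by -0.13 ± 0.14 and Atp5g3 by 0.021 ± 0.09, and the sign of the last turned to -0.0012 under quantile normalization. A stalk and a membrane subunit had the lowest p-values in complex V, and are named after their values were seen. Atp5pb, the b subunit of the peripheral stalk, gave log2 signals of 8.55, 8.44 and 8.49 in WT mice, against 8.24, 8.24 and 8.23 in Runx3-/- mice. The groups did not overlap, and the difference was -0.26 ± 0.08 (SE, adjusted p = 0.0872). A further Atp5pb probe set (10500990) differed by only -0.12, with overlapping groups (limma adjusted p = 0.57 with every probe set tested on its own). Atp5l, whose promoter is shown above, gave log2 signals of 7.19, 7.12 and 7.20 in WT mice, against 6.90, 6.78 and 6.99 in Runx3-/- mice, with every Runx3-/- array below every WT array and a difference of -0.28 ± 0.09 (SE, adjusted p = 0.0945). The array carried 6 probe sets for Atp5l. All 6 separated the groups in the same direction, by -0.41 to -0.26, with adjusted p from 0.0974 to 0.304 when every probe set was tested on its own. Whether these probe sets share probes or read copies of the gene is not given, so they are not independent measurements.

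In all, 18 members had several probe sets, 44 together. The probe sets of 14 genes were all lower and those of 2 genes (Cox7b and Atp5h) all higher in Runx3-/- cells. They disagreed in sign for Cox6c, a complex IV subunit, at -0.0060, which turned to 0.014 under median centring, and 0.033, and for Sdhaf4, a complex II assembly factor, at -0.17 and 0.038.

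**Figure D3:**
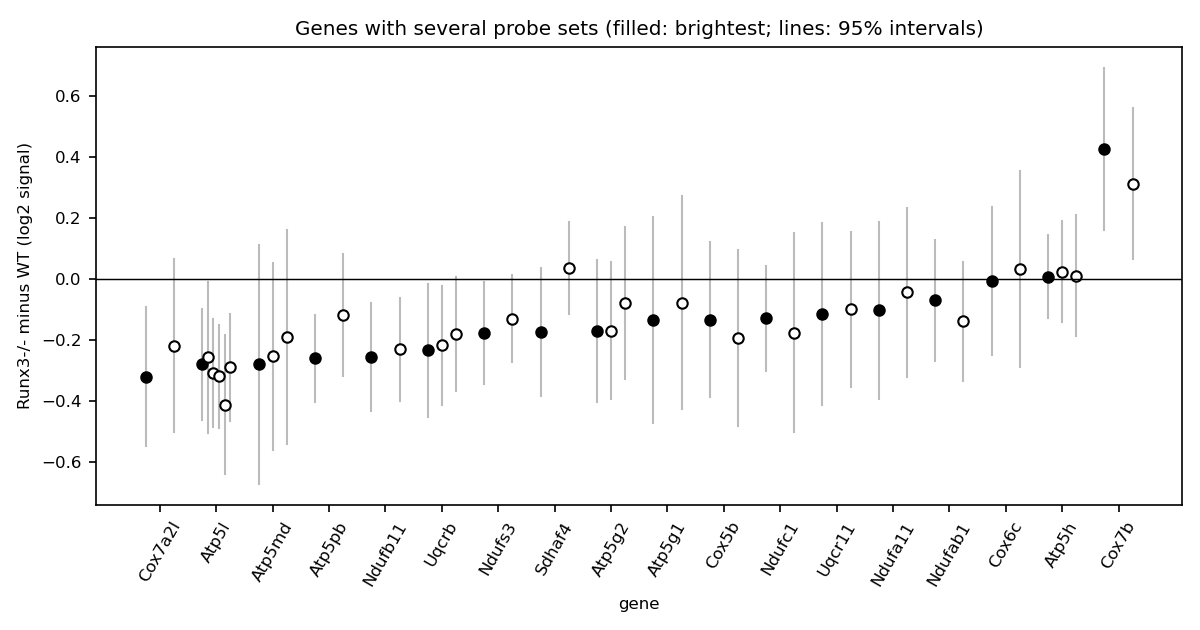
Runx3-/- minus WT difference in log2 signal (vertical axis) with its 95% interval for each of the 44 probe sets of the 18 respiratory chain genes that had more than 1 (horizontal axis), from a fit of every probe set on its own; filled points are the brightest probe set of a gene. The 6 Atp5l probe sets lie between -0.41 and -0.26, both Cox7b probe sets lie above 0, and Cox6c and Sdhaf4 have points on both sides of 0.

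By role, 62 of the 75 tested subunits and isoforms had a lower mean in Runx3-/- cells. Of 54 accessory subunits, 48 did, with a median of -0.13, which was -0.078 without Runx3-/- replicate 2 (41 lower). Of 16 core subunits 12 did, with a median of -0.066. The core median was -0.040 and -0.12 without WT replicates 1 and 2, and -0.12 and -0.021 without Runx3-/- replicates 1 and 2, with 9 to 11 subunits lower. Of the 12 assembly factors 5 did, with a median of 0.049 that ran from -0.0047 to 0.088 over the alternative settings. Over the 10 assembly factors that reached the median in all arrays it was 0.0014, with 5 lower. Cox7a2l, at -0.32, had the lowest difference of the 12. The difference between these roles was not tested. The members were also brighter than most genes. When all tested genes were cut by mean signal into 4 equal bins, 43 of the 87 members lay in the brightest bin, where the median difference was -0.13 for members and 0.016 for all genes. In the middle bins it was -0.11 and -0.13 for members and 0.0036 and 0.0087 for all genes. The 9 members in the dimmest bin had a median of 0.031, with 3 lower. Several assembly factors were among these 9, so that role and signal were not separated.

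The arrays of a genotype differed in their level over the members. For each array the median, over the 87 members, of the signal minus that gene's WT mean was 0.017, -0.050 and 0.019 in WT. It was -0.022, -0.16 and -0.14 in Runx3-/-. Runx3-/- replicate 1 thus lay within the range of the WT arrays and the other two Runx3-/- arrays below it. Over all genes tested the same medians ran from -0.017 to 0.012 in WT, and were 0.027, 0.029 and -0.040 in Runx3-/-. Among the 87 members, 38, 57 and 33 were below the WT mean in WT replicates 1, 2 and 3, and 50, 68 and 67 in the Runx3-/- replicates. Runx3-/- replicate 2 was the lowest of the 6 arrays for 37 members and Runx3-/- replicate 3 for 24. In complex IV the medians of these 2 arrays reached -0.26 and -0.19, and in complex II all 3 Runx3-/- arrays lay between -0.029 and -0.017.

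**Figure D4:**
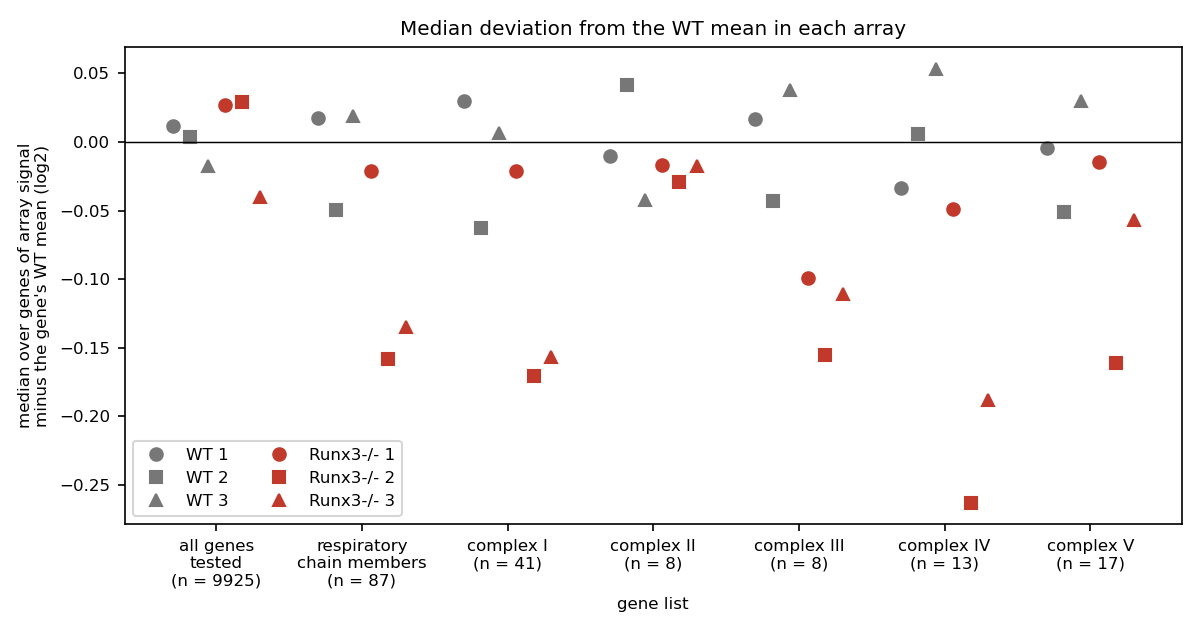
Median, over the genes of a list, of the array's log2 signal minus the gene's WT mean (vertical axis) for all 9925 genes tested, the 87 respiratory chain members and the members of each complex (horizontal axis), with grey for WT, red for Runx3-/- and circles, squares and triangles for replicates 1, 2 and 3. For the members, Runx3-/- replicates 2 and 3 lie at -0.16 and -0.14 and replicate 1 at -0.022, within the WT range of -0.050 to 0.019.

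Genes that work beside these complexes were read from the same fit. Of the subunits encoded in mitochondrial DNA, only COX2 and ND3, named with their values known, were found under a symbol of their own. COX2 and ND3 differed by -0.22 ± 0.10 and -0.15 ± 0.10 (SE), with overlapping groups, and neither passed. The sources used here do not say which copy of a gene these probe sets read. Cycs, the cytochrome c that carries electrons from complex III to complex IV, gave log2 signals of 7.84, 7.56 and 7.75 in WT mice, against 7.09, 7.04 and 7.29 in Runx3-/- mice. All Runx3-/- values lay below all WT values, and Cycs fell by 0.57 ± 0.11 (SE, limma adjusted p = 0.0155). It missed the threshold without WT replicate 1 or Runx3-/- replicate 2, with adjusted p of 0.0602 and 0.0593. Cyc1, the cytochrome c1 of complex III, differed by -0.0043 ± 0.09, and by 0.015 under median centring.

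Other lists are read against the 11.6% of all genes tested that passed and the 27.7% that had an unadjusted p under 0.05. Of 32 assembly factors with other names, 20 had a lower mean and 0 passed the limma test, with 5 at an unadjusted p under 0.05 and a median of -0.012. Among 6 carriers and channels for adenine nucleotides and phosphate, 5 had a lower mean, 0 passed and 2 had an unadjusted p under 0.05. Among 11 genes of coenzyme Q synthesis 5 had a lower mean, and 0 passed at the adjusted or unadjusted threshold. Of 17 genes that regulate respiratory genes or copy mitochondrial DNA 3 passed. Polg and Polg2, the catalytic and accessory subunits of the mitochondrial DNA polymerase, rose by 0.66 ± 0.11 and 0.69 ± 0.16 (SE, limma adjusted p = 0.00698 and 0.0299), and Myc fell by 0.50 ± 0.10 (adjusted p = 0.0161). Polg passed whichever array was left out. Polg2 missed the threshold without WT replicate 1 or 3 or Runx3-/- replicate 2 or 3, with adjusted p from 0.0646 to 0.101, and Myc without WT replicate 1 or 2 or Runx3-/- replicate 2 or 3, with adjusted p from 0.0507 to 0.0641. The mitochondrial ribosomal proteins, which translate the subunits encoded in mitochondrial DNA, had a lower mean for 59 of 77 genes (76.6%), a median of -0.069, 4 falls and 0 rises. Mrpl20 fell by 1.05 ± 0.11, Mrpl36 fell by 0.55 ± 0.11, Mrpl42 fell by 0.56 ± 0.11 and Mrps21, named to complete the count, fell by 0.34 ± 0.09 (SE, limma adjusted p from 0.000836 to 0.0468). Mrpl20 passed whichever array was left out. Mrpl36 missed the threshold without WT replicate 1 or Runx3-/- replicate 2 or 3, and Mrpl42 without WT replicate 1 or 2 or Runx3-/- replicate 2, with adjusted p from 0.0538 to 0.0661, and Mrps21 whichever of the 6 arrays was left out, with adjusted p from 0.0565 to 0.132. Mrps21 also missed it under both other scalings. The difference between this list and the respiratory chain members was not tested.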

How the data were processed

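Gene expression was measured in 6 arrays, 3 WT and 3 Runx3-/-, grouped by the genotype in the labels. The authors normalized the arrays by RMA with a GC correction in Partek and deposited log2 values. The sources used here do not give versions or the genome build. The 6 arrays limit the precision. Platform annotation paired 21789 of 35399 probe sets with 1 symbol, 1621 with several and 11989 with none, and all 93 members had an identifier in the RefSeq gene table. Probe sets at or above the median of an array in at least 1 array were kept, and the brightest per gene was taken, leaving 9925 genes. The genotypes were compared with the two-sided test of limma 3.58.1 in R 4.3.3 (lmFit and eBayes, no covariates) and Benjamini-Hochberg adjustment over all of them, and the script was tested on simulated data. Without a detection call, low signals may lie near background and folds may be understated.

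The members and all gene lists were chosen with earlier results of these data known. Lists are therefore described by counts and medians only. Genes named were members past the threshold, core subunits, isoforms, c-ring genes, members whose probe sets disagreed in sign, and up to 3 called genes per related list; other genes named, among them Cd247, Lat, Cyc1, Atp5h, Ndufa4l2 and those marked in the text, were chosen after their values were seen. The labels give 1 array per mouse. Alternatives changed the normalization, the filter, the choice of probe set, the variance model, the arrays used, the replicate number as a block and the call rule, and testing every probe set on its own was added after seeing the data.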

Additional observations from a re-analysis of the deposited data

How the results depend on the processing

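The number of members that differed, 2 in the report, was small enough for most settings to move it. It was 1 (Ndufa4) under quantile normalization, with no filter, with the filter at the 25th percentile and with the mean of a gene's probe sets, 1 (Ndufs5) under the 1.5-fold rule of the methods, and 0 without moderation of variances, with every probe set tested on its own, and with the replicate block. Leaving out 1 array gave from 0 to 2. It was 0 without WT replicate 1, Runx3-/- replicate 2 or Runx3-/- replicate 3, 1 without WT replicate 2 (Ndufs5) or WT replicate 3 (Cox7b), and 2 without Runx3-/- replicate 1, which were Cox6b1 and Cox8a. Fewer arrays also lower the precision. It stayed at 2 with median centring, the filter in all arrays, array weights, and a variance trend. Same-numbered arrays of the genotypes had correlations of 0.177, 0.032 and -7.9e-05 between their deviations, so that the numbers were not taken to pair the mice.

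The median difference over all members stayed between -0.14 and -0.071 under all alternatives run for it, and the number of members with a lower mean between 58 and 69. The medians of complex III and of the complex IV accessory subunits moved by less than 1.5 times, and larger moves of the medians of complexes I, II, IV and V are given in the report. Of 59 named genes with a fitted difference, 46 kept their sign under every alternative run for them. The other 13 are given next. Under median centring the difference was 0.016 for Atp5a1, 0.019 for Atp5b, 0.014 for Cox6c, 0.019 for Cox7a2 and 0.015 for Cyc1. Under quantile normalization it was 0.056 for Atp5a1, 0.062 for Atp5b, -0.0012 for Atp5g3 and 0.0045 for Cox7a2. With array weights it was 0.0062 for Cox6c, 0.00054 for Cox7a2 and 0.0061 for Cyc1, and with the mean of probe sets 0.014 for Cox6c. With 1 array left out it ran from -0.034 to 0.039 for Atp5a1, from -0.0069 to 0.0055 for Atp5b, from -0.13 to 0.075 for Atp5e, from -0.25 to 0.015 for Atp5g1, from -0.034 to 0.071 for Atp5g3, from -0.032 to 0.15 for Cox6a2, from -0.093 to 0.066 for Cox6c, from -0.039 to 0.059 for Cox7a2, from -0.062 to 0.022 for Sdha, from -0.0085 to 0.027 for Atp5h, from -0.00057 to 0.067 for Uqcrc1, from -0.058 to 0.057 for Cyc1 and from -0.012 to 0.28 for Runx3. The cause of these changes was not tested.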
